A study of Mus musculus with 30 samples.

Results

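10 genes of T cells and natural killer (NK) cells were followed in mouse ovaries: Trac, Trbc1 and Trbc2 (T cell receptor constant regions), Cd3e and Cd3g (CD3 chains), Cd4, Lck, Zap70, Nkg7 and Il2rb. They were taken by symbol from the deposited table, which matched all 10 of them among its 50600 genes. Because their tag counts were low, their sum in each animal was described as well.

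The study compared the ovaries of 7 mice that drank 3% dextran sulfate sodium (DSS, a polymer used in mice to induce colitis) for 7 days while sexually immature with those of 8 littermates that were not given it. All were C57BL/6 females, the ovaries were taken after sexual maturity, and the labels used here give no age. The left and the right ovary of each mouse were separate libraries, 14 DSS and 16 control libraries in all, so the mouse was the replicate and no animals were pooled. The libraries were made by CEL-Seq, which tags the 3′ ends of polyadenylated transcripts, and the deposited values are read counts divided by a size factor for each library.

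T cells recognise peptides bound to MHC molecules through an αβ receptor that pairs a chain with the Trac constant region with a chain carrying Trbc1 or Trbc2. The receptor itself has no signalling domain: the CD3 chains carry the signal, the kinase Lck, bound to the CD4 or CD8 co-receptor, phosphorylates them, and the kinase Zap70 docks on the phosphorylated chains. NK cells share granule genes such as Nkg7 and the interleukin-2 and interleukin-15 receptor chain Il2rb with cytotoxic T cells, and in the ovary both cell types are found in the stroma, the corpora lutea and the vessels.

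Trbc1 and Trbc2 lie side by side on chromosome 6 of GRCm38, at 41538218 to 41539881 and 41546730 to 41548352 on the plus strand. Their first 3 exons are so alike that reads falling in them may have been split between the 2 genes. The sequence beyond the third exon, up to the 3′ ends that CEL-Seq tags, was not compared. How many tags this concerns is therefore not known. Over the 500 bases compared, 19 differed (96.2% identity), of which 1 lay in the 375 bases of the first exon, 3 in the 18 bases of the second and 15 in the 107 bases of the third. The third exon, in which most of the differing bases lie, is therefore shown for both (GENCODE M21 annotation, Trbc1 at chr6:41539229-41539335 and Trbc2 at chr6:41547772-41547878, plus strand, 5′ to 3′), with the differing bases in capitals:
Trbc1: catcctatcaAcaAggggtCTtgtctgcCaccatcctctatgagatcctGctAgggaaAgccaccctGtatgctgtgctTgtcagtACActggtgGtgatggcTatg
Trbc2: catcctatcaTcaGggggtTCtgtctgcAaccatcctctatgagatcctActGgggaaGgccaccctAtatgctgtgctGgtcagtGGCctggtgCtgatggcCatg
The 2 genes are therefore reported separately but with this uncertainty. Cd3e overlaps the annotated antisense gene Gm48719 and the gene Gm48720, and its tags are uncertain for that reason, as whether tags were counted by strand is not given in the sources used here.

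The depth of the libraries ranged from 3095386 to 8564770 reads (median 4305814), and the 10 genes together took only 30 to 139 reads in a library. All 10 were detected, but Trbc1 was at 0 in 7 of the 30 libraries, Cd3e in 8, Cd3g in 6 and Nkg7 in 1. The label of T cell genes was borne out by further T cell genes at low levels, with a mean over libraries of 7.05 normalized counts for Cd3d, a further CD3 chain, and 1.60 for Cd8a, which was at 0 in 11 libraries. Other defining markers were near the floor: Cd40lg was at 0 in all 30 libraries, Ctla4 in 29, and Foxp3, the factor of regulatory T cells, in 24. Of the NK markers, Gzma averaged 5.29 and Klrk1 4.80 normalized counts and neither was at 0 in any library, whereas Ncr1 was at 0 in 9, Prf1 in 19 and Gzmb in 22. In 7 libraries, 4 from DSS mice and 3 from control mice, the oviduct glycoprotein gene Ovgp1 exceeded 5000 normalized counts. The limma tests of genes with a mean of at least 5, and the DSS to control ratio of the summed 10 genes, were also computed without those ovaries. Genes under that mean, and the sums of other lists, were not.

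No T or NK cell gene was called between DSS and control mice. Of the 10 genes, 5 reached a mean of 5 normalized counts and entered the test, and of these 0 of 5 passed limma with Benjamini-Hochberg adjustment at 0.05, as did 0 of all 14646 genes tested (0%). At an unadjusted p under 0.05, limma listed 1169 of the 14646 genes (7.98%), and 6 genes (0.041%) passed the adjusted threshold in edgeR and 52 (0.355%) in DESeq2, none of them one of these 10. Of the 5 tested, 4 had a positive log2 difference, against 50.6% of all genes tested. Their median was 0.38, beside 0.0018 for all genes tested. In bulk ovaries, fewer cells of a type and less RNA per cell cannot be told apart.

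Trac encodes the constant region of the T cell receptor α chain (ENSMUSG00000076928.5, chr14:54220521-54224206). Its mean over both ovaries ranged from 3.81 to 18.1 normalized counts among DSS mice (median 9.68), against 2.0 to 9.95 among control mice (median 5.33). The groups overlapped, and 6 of 7 DSS mice exceeded the control median. Trac averaged 9.84 ± 4.73 in DSS mice and 5.75 ± 2.78 in control mice (SD, n = 7 and 8). The log2 difference was 0.68 (SE 0.32, 95% interval 0.02 to 1.35), and its adjusted p was 0.615 by limma with Benjamini-Hochberg adjustment. It was the only one of the 10 with an unadjusted limma p under 0.05 (0.0454), a level reached with a higher value in DSS mice by 4.81% of all genes tested. Across the alternatives its log2 difference lay between 0.45 and 0.86 and its adjusted p between 0.371 and 0.850.

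Trbc2 encodes one of the β chain constant regions (ENSMUSG00000076498.2). It ranged from 6.04 to 20.7 normalized counts in DSS mice (median 10.38), against 4.38 to 13.1 in control mice (median 8.38). Mice DSS_10.4 and DSS_11.1 stood above every control mouse, and the remaining 5 lay within the control range. The log2 difference was 0.36 (SE 0.25, 95% interval -0.17 to 0.89; limma, adjusted p = 0.738). Trbc1, the other β constant region (ENSMUSG00000076490.6), averaged 1.72 ± 0.66 normalized counts in DSS mice and 1.55 ± 0.86 in control mice (SD, n = 7 and 8). It was under the filter, as only 51 reads fell on it in all 30 libraries, and its range of 0.84 to 2.57 in DSS mice lay inside the 0.52 to 3.20 of control mice.

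The CD3 chains carry the receptor's signalling motifs, and both were among the sparsest of the 10. Cd3e (ENSMUSG00000032093.7, chr9:44998440-45009627) had 41 reads in all, and averaged 1.37 ± 1.0 normalized counts in DSS mice and 1.26 ± 0.96 in control mice (SD, n = 7 and 8). In each group 1 mouse had no Cd3e tag in either ovary. Without mouse DSS_10.4 the ratio of the means was 0.89, against 1.09 with all mice. Cd3g (ENSMUSG00000002033.14, chr9:44969272-44980431), with 75 reads, ranged from 0.55 to 6.48 in DSS mice and from 0 to 4.70 in control mice. Only mouse DSS_15.1 lay above the control mice, and the ratio of the means was 1.48 with it and 1.17 without it.

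Cd4 encodes the co-receptor for MHC class II, found on helper T cells and also on some macrophages and dendritic cells (ENSMUSG00000023274.14, chr6:124864392-124888221). It ranged from 6.01 to 19.0 normalized counts in DSS mice (median 13.18) and from 5.18 to 15.2 in control mice (median 8.66). The ranges overlapped over most of their length, with 5 of 7 DSS mice above the control median. The log2 difference was 0.45 (SE 0.26, 95% interval -0.09 to 0.98; limma, adjusted p = 0.681).

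The kinases had estimates of opposite sign. Lck, the first kinase of the receptor pathway (ENSMUSG00000000409.14, chr4:129548044-129573641), had the most reads of the 10, 405 in all. It ranged from 9.72 to 14.8 normalized counts in DSS mice (median 12.2) and from 8.29 to 21.7 in control mice (median 13.38). Only 1 of 7 DSS mice lay above the control median, and the DSS mice all fell inside the control range. The log2 difference was -0.11 (SE 0.17, 95% interval -0.47 to 0.25; limma, adjusted p = 0.898), and it was 0.07 in right ovaries alone. Zap70, which binds the phosphorylated CD3 chains (ENSMUSG00000026117.10, chr1:36761798-36783118), ranged from 3.22 to 13.7 normalized counts in DSS mice (median 5.84) and from 1.60 to 9.52 in control mice (median 5.61). It averaged 7.10 ± 3.47 in DSS mice and 5.48 ± 3.00 in control mice (SD, n = 7 and 8). Mice DSS_11.2 and DSS_11.1 were above every control mouse, and mice control_13.5 and control_16.9 were below every DSS mouse. The log2 difference of Zap70 was 0.38 (SE 0.33, 95% interval -0.32 to 1.07; limma, adjusted p = 0.800).

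Nkg7, a granule membrane protein gene of NK and cytotoxic T cells (ENSMUSG00000004612.9, chr7:43437073-43438549), ranged from 1.39 to 9.93 normalized counts in DSS mice (median 4.64) and from 1.12 to 3.40 in control mice (median 2.54). Mice DSS_10.4, DSS_11.2, DSS_15.1 and DSS_13.2 lay above every control mouse, and the remaining 3 lay within the control range. The ratio of the group means was 1.72 with all mice and 1.35 without mouse DSS_10.4, when the DSS mean was 3.43 ± 1.48 (SD, n = 6) beside 2.53 ± 0.76 in control mice (SD, n = 8). In a limma fit with no filter on low values its log2 difference was 0.48 (SE 0.29), with an adjusted p of 0.813. Il2rb, the β chain shared by the receptors for interleukin-2 and interleukin-15 (ENSMUSG00000068227.8, chr15:78480253-78495066), averaged 3.53 ± 1.47 normalized counts in DSS mice and 3.18 ± 1.42 in control mice (SD, n = 7 and 8). Its ranges, 1.64 to 5.77 in DSS mice and 1.54 to 5.80 in control mice, were almost the same. The deposited 3′ end of Il2rb lies at -997 nt from the annotated end, which is short of it, whereas that of Lck, Zap70, Cd4, Nkg7, Cd3e and Cd3g lies 300 nt past it, and how many tags of Il2rb this left uncounted was not tested.

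**Figure D1:**
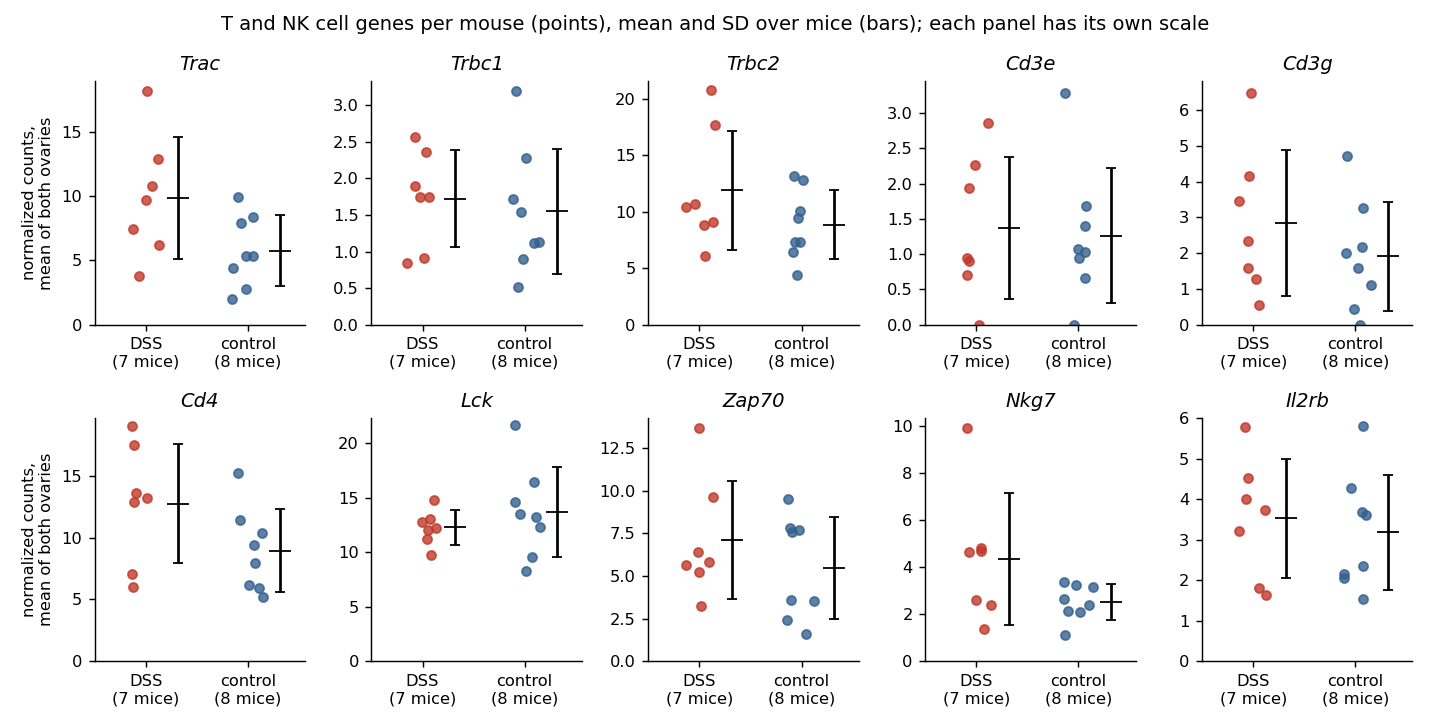
Normalized counts of each of the 10 genes per mouse (mean of the left and right ovary), with DSS mice left of control mice and the mean and SD over mice beside the points. The groups overlap in all 10 panels, and the highest Nkg7 value, 9.93, belongs to mouse DSS_10.4.

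In the no-filter fit 9 of the 10 genes had a positive DSS minus control difference, against 55.2% of the 29326 genes in it, and Lck had a negative one. The estimates of the 5 sparse genes in that fit were 0.48 for Nkg7, 0.41 for Cd3g, 0.12 for Trbc1, 0.11 for Il2rb and 0.05 for Cd3e on the log2 scale, and their lowest adjusted p was 0.813 by limma. The 10 genes were read in the same libraries, so their signs are not independent of each other.

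**Figure D2:**
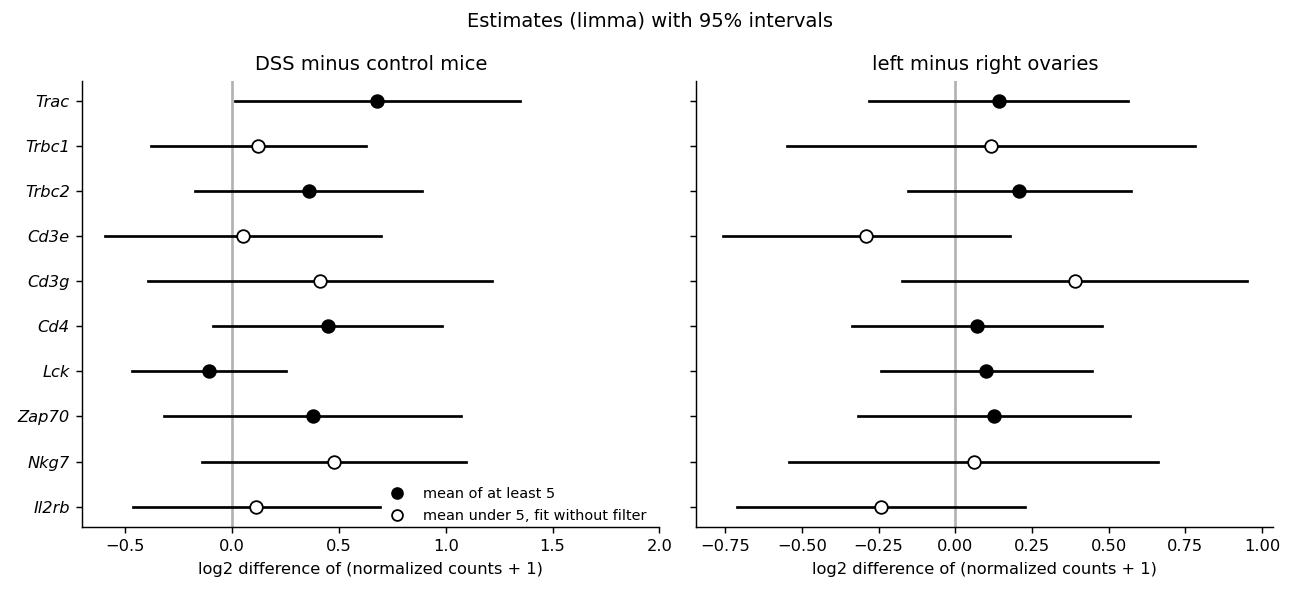
Log2 differences with 95% intervals from limma for the 10 genes, DSS minus control mice on the left and left minus right ovaries on the right. Filled points are the 5 genes tested and open points the 5 sparse genes, taken from the fit without a filter. In the DSS comparison the interval of Trac, 0.02 to 1.35, was the only one that did not reach 0.

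Summed over the 10 genes, the DSS mice had more tags on average, but the groups overlapped. The sum ranged from 46.9 to 96.1 normalized counts in DSS mice (median 65.6) and from 36.7 to 71.7 in control mice (median 48.6). It averaged 67.7 ± 15 in DSS mice and 53.2 ± 14 in control mice (SD, n = 7 and 8), a ratio of 1.27, and 6 of 7 DSS mice lay above the control median. Mice DSS_10.4 and DSS_11.1 were above every control mouse, and mice control_10.6, control_13.4, control_13.5 and control_16.9 were below every DSS mouse. The difference of the means was about the size of the SD within a group, and no p is given because the genes were chosen with results of these data known.

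The ratio of the sums kept its direction in all 23 alternatives, between 1.18 and 1.43. The lowest value was that without mouse DSS_10.4, when the DSS mean was 62.9 ± 9.81 (SD, n = 6). The highest was that of the receptor and CD3 genes alone (Trac, Trbc1, Trbc2, Cd3e and Cd3g), which summed to 27.7 ± 10.1 in DSS mice and 19.3 ± 6.35 in control mice (SD, n = 7 and 8). All 7 DSS mice lay above the control median of these 5. Without Lck, which took 21.7% of the sum, the ratio was 1.40. Scaled by the recovered library total in place of the deposited size factors, the ratio was 1.26.

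**Figure D3:**
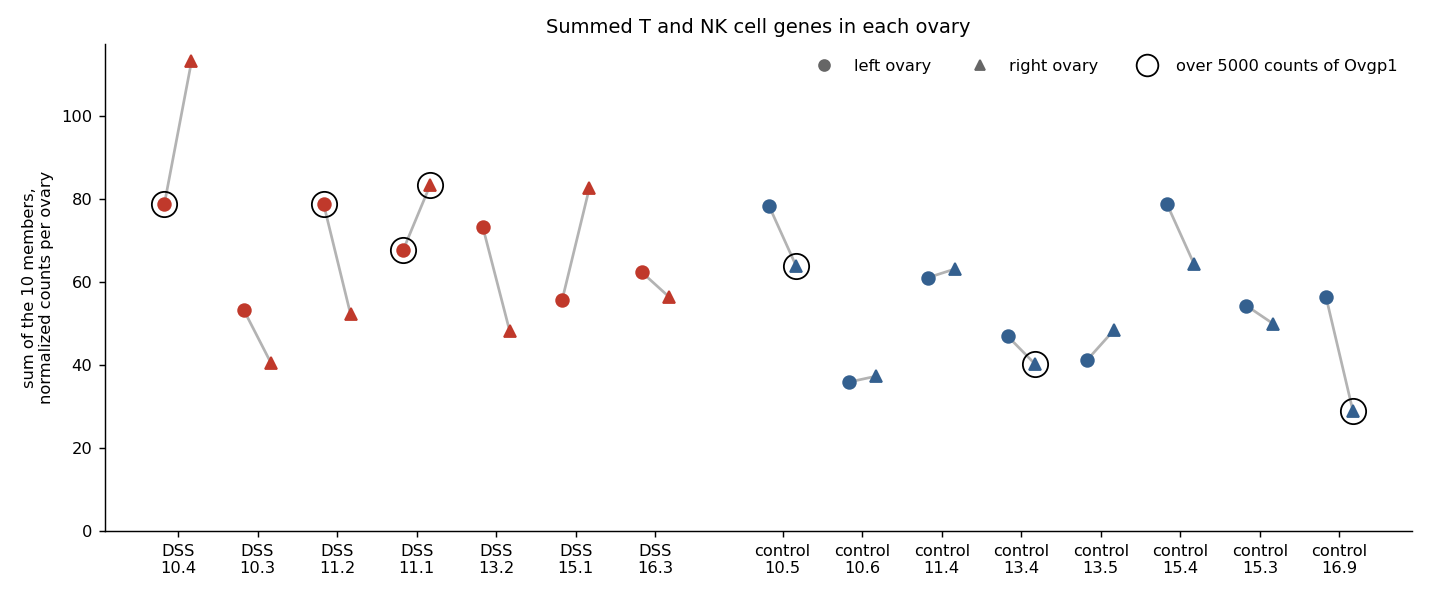
Sum of the 10 genes in each of the 30 libraries, in normalized counts, with the left (circle) and right (triangle) ovary of a mouse joined by a line and DSS mice left of control mice. Rings mark the 7 libraries over 5000 normalized counts of Ovgp1. The right ovary of mouse DSS_10.4, at 113.2, is the highest and the right ovary of mouse control_16.9, at 28.9, the lowest.

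The ovaries over 5000 Ovgp1 spanned most of the range of the sum. The sum was 28.9 to 83.4 normalized counts in the 7 libraries over the limit (median 67.8) and 36.0 to 113.2 in the other 23 (median 55.8). In the 5 mice with 1 ovary on each side of the limit, the sum was higher in the Ovgp1-rich ovary of 1 mouse, mouse DSS_11.2 (78.9, against 52.3 in its other ovary). In mouse DSS_10.4 the Ovgp1-rich ovary had 79.0 and the other 113.2, and in mouse control_16.9 they had 28.9 and 56.5. Without the 7 libraries the sum averaged 67.0 ± 23.9 in DSS mice and 56.2 ± 14.03 in control mice (SD, n = 6 and 8), a ratio of 1.19, and 4 of 6 DSS mice lay above the control median. Both ovaries of mouse DSS_11.1 were over the limit, so that mouse dropped out. The log2 differences without these ovaries were 0.70 for Trac, 0.37 for Zap70, 0.28 for Cd4, 0.16 for Trbc2 and -0.14 for Lck, with a lowest adjusted p of 0.495 by limma, so that 4 of 5 were positive, against 50% of all genes tested. That of Trac was close to its value with all ovaries, and those of Cd4 and Trbc2 were lower.

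Left and right ovaries were compared within mice, with the mouse as a block. Again 0 of 5 T and NK cell genes passed limma with Benjamini-Hochberg adjustment at 0.05, in a comparison in which 1488 of the 14646 genes did (10.2%). All 5 had a positive left minus right log2 difference, against 51.5% of all genes tested: 0.21 for Trbc2, 0.14 for Trac, 0.13 for Zap70, 0.10 for Lck and 0.07 for Cd4. Their lowest adjusted p was 0.519, and the left ovary was higher in 9 of 15 mice for Trbc2, Zap70 and Lck, in 8 for Trac and in 6 for Cd4. Of the sparse genes, Cd3g was higher on the left in 10 of 15 mice and Il2rb in 4 of 15, with log2 differences of 0.39 and -0.24 (limma without a filter, adjusted p = 0.593 and 0.729). The labels number every left ovary odd and every right ovary even, so an order of preparation that followed these numbers and the side cannot be told apart.

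The sum averaged 61.6 ± 14.2 normalized counts in left ovaries and 58.3 ± 21.7 in right ovaries (SD, n = 15 each). The left minus right difference was 3.37 ± 18.5 (SD, n = 15 mice), much smaller than its spread, and the left ovary was higher in 9 of 15 mice. Within DSS mice the sum averaged 67.2 ± 11 on the left and 68.1 ± 26 on the right (SD, n = 7 each). Within control mice it averaged 56.7 ± 16 on the left and 49.6 ± 14 on the right (SD, n = 8 each). The DSS to control ratio was thus 1.19 in left ovaries alone and 1.37 in right ovaries alone, and the right ovary of mouse DSS_10.4 was the highest of all. Whether the DSS difference itself depended on the side was tested per gene, by setting the left minus right values of DSS mice against those of control mice. None of the 5 genes passed (0% of the 14646 genes tested were called, and limma gave 1098, or 7.5%, an unadjusted p under 0.05). Their estimates ran from -0.40 for Trbc2 to 0.28 for Trac, and their lowest adjusted p was 0.737 by limma. Among the sparse genes, Il2rb had an estimate of -0.74 (limma without a filter, adjusted p = 0.788), with a higher left ovary in 1 of 7 DSS mice and 3 of 8 control mice.

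The rest of the T cell receptor pathway was read from a list of 19 further genes, of which 11 were abundant enough to test. None was called between DSS and control mice. Of the 11, 10 were higher in DSS mice, against 50.6% of all genes tested, and the median log2 difference was 0.29. Summed, the 19 had 379 ± 45.7 normalized counts in DSS mice (range 331 to 465.9) and 336 ± 43.0 in control mice (range 295 to 414). Most of this sum came from Fyn and Lcp2, which are also expressed outside T cells and averaged 159 and 101 normalized counts over libraries. Lcp2, the adaptor SLP-76 that is also expressed in myeloid cells, had the smallest p, with 113 ± 12.1 normalized counts in DSS mice and 90.2 ± 21.7 in control mice and a log2 difference of 0.34 (SE 0.12; limma, adjusted p = 0.507). All 7 DSS mice exceeded its control median. Txk, a Tec family kinase of T cells, and Cd28, the costimulatory receptor, had log2 differences of 0.36 and 0.50 with limma adjusted p of 0.592 and 0.635. Cd28 reached the mean of 5 only through the DSS mice, which averaged 6.62, against 4.57 in control mice. Its direction thus followed from the filter, and the counts by direction and medians of this list include it. Without the Ovgp1-rich ovaries 10 of the 11 were again higher in DSS mice, with a median of 0.30.

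Between the sides, 2 of these 11 genes passed limma with Benjamini-Hochberg adjustment, beside 10.2% of all genes, and 4 of the 11 were higher on the left. Lcp2 averaged 109 ± 21.3 normalized counts in left ovaries and 92.3 ± 24.1 in right ovaries (SD, n = 15 each), with a log2 difference of 0.26 (SE 0.08, adjusted p = 0.0316 by limma) and a higher left ovary in 14 of 15 mice. Fyn, an Src family kinase expressed far beyond T cells, averaged 172 ± 24.5 in left and 146 ± 14.1 in right ovaries, with a log2 difference of 0.23 (SE 0.07, adjusted p = 0.0446 by limma) and a higher left ovary in 11 of 15 mice. Both calls were close to the threshold. That of Lcp2 was lost without any 1 of mice DSS_11.1 and DSS_15.1 and mice control_10.5, control_11.4, control_13.4 and control_15.4, and that of Fyn without any 1 of 11 mice, with adjusted p of up to 0.0636 and 0.0909. Without the Ovgp1-rich ovaries limma gave an adjusted p of 0.133 for Lcp2 and 0.0808 for Fyn, and with no replicate block it gave 0.195 for Lcp2. Lcp2 also missed the threshold in DESeq2 (adjusted p = 0.0604), and Fyn in limma with TMM scaling (adjusted p = 0.0717). Lcp2 overlaps the annotated gene 4930469K13Rik, and Fyn overlaps antisense genes, on the opposite strand, which makes their tags uncertain as well. The same holds, among others, for Txk, Tcf7, Ptprc, Csf1r and Ovgp1, which overlap other annotated genes.

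Some macrophage markers, and 1 pan-leukocyte gene, were called higher on the left in the same comparison, and 1 dendritic cell gene lower. Of 11 macrophage genes tested, 8 had a positive left minus right difference and 4 were called by limma with Benjamini-Hochberg adjustment, beside 10.2% of all genes. C1qb, a chain of the complement component C1q, averaged 400.0 ± 85.5 normalized counts in left ovaries and 302.96 ± 38.6 in right ovaries (SD, n = 15 each), with a log2 difference of 0.38 (adjusted p = 0.00604). C1qc, another of its chains, had a log2 difference of 0.34 (limma, adjusted p = 0.00879), and both passed without any 1 mouse and without the Ovgp1-rich ovaries. C1qa and the receptor gene Csf1r were called as well, at log2 differences of 0.30 and 0.31 (limma, adjusted p = 0.0304 and 0.0343). Of 10 pan-leukocyte genes tested 7 were positive and 1 was called, near the 10.2% of all genes. The called gene was the integrin β2 gene Itgb2, at 0.37 (limma, adjusted p = 0.0328). The calls of C1qa, Csf1r and Itgb2 were lost without the Ovgp1-rich ovaries, and without any 1 of 5, 7 and 5 mice in that order. Of 6 dendritic cell genes tested 3 were positive and 1 was called, beside 10.2% of all genes. The called gene, Zbtb46, was lower on the left at -0.24 (limma, adjusted p = 0.0130), with a higher left ovary in 2 of 15 mice. Its call held without any 1 mouse. It was lost without the Ovgp1-rich ovaries (limma, adjusted p = 0.165) and in DESeq2 (adjusted p = 0.0613). The part of these cells in the Lcp2 and Fyn values was not tested.

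Lists of T and NK cell subsets added no call in either comparison. For CD8 and γδ T cells 2 of 8 genes in the table were tested, Cd8b1 at 8.29 ± 1.63 normalized counts in DSS mice and 7.10 ± 1.82 in control mice (SD, n = 7 and 8) and Sox13 with a log2 difference of 0.02. For NK and innate lymphoid cells only Gzma was tested, with 6.00 ± 3.06 in DSS mice and 4.66 ± 2.68 in control mice and a log2 difference of 0.29 (limma, adjusted p = 0.853), and it too reached the mean of 5 only through the DSS mice. The 16 NK and innate lymphoid genes summed to 35.5 ± 7.92 normalized counts in DSS mice (range 23.6 to 48.6) and 25.3 ± 4.18 in control mice (range 16.95 to 31.2), and the ranges overlapped. Of 17 helper and regulatory T cell genes 6 were tested, and 1 of these was higher in DSS mice, with a median of -0.09. Among the lower ones, Bcl11b reached the mean of 5 only through the control mice (5.56, against 4.53 in DSS mice). Its direction thus followed from the filter. The gene with the smallest p in this list, the T cell transcription factor gene Tcf7, averaged 45.7 ± 6.90 in DSS mice, against 50.6 ± 8.70 in control mice. Over libraries Tcf7 averaged 48.3 and Lef1, of the same list, 21.5, beside 7.66 for Trac. Whether their tags came from T cells was not tested.

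Receptors, cytokines and signal transducers of the common γ chain family, to which Il2rb belongs, were evenly divided: 4 of 8 tested were higher in DSS mice, 0 were called and the median was 0.05. Il15ra, which presents interleukin-15 to cells bearing Il2rb, had 32.9 ± 5.53 normalized counts in DSS mice and 26.5 ± 9.79 in control mice (SD, n = 7 and 8), a log2 difference of 0.37 (limma, adjusted p = 0.663). Among chemokines that attract T cells, Cxcl9, an interferon-γ induced ligand of the receptor Cxcr3, had the largest difference. Its level ranged from 3.44 to 25.7 in DSS mice (median 5.30) and from 0.96 to 4.37 in control mice (median 2.0). Mouse DSS_10.4, which also had the highest Trac, Nkg7 and summed values, was the highest. The log2 difference of Cxcl9 was 1.31 (SE 0.36, 95% interval 0.55 to 2.08; limma, adjusted p = 0.347), 7 of 7 DSS mice exceeded the control median, and DESeq2 gave an adjusted p of 0.0413. Cxcl9 entered these tests only through the DSS mice, with a mean of 8.95 in DSS mice, against 2.41 in control mice. A gene that passes the filter in this way must differ between the groups, so its test supports no difference. Of the 5 chemokine genes tested, 4 were higher in DSS mice (median 0.09), but 1 of 5 without the Ovgp1-rich ovaries (median -0.06), when the Cxcl9 difference was 1.53.

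Between DSS and control mice, limma called no marker of other leukocytes, and 50.6% of all genes tested had a positive log2 difference. The pan-leukocyte list was higher in DSS mice in 10 of the 10 genes tested (median 0.28, and 8 of 10 with a median of 0.21 without the Ovgp1-rich ovaries), with a summed level of 806 ± 161 normalized counts in DSS mice (range 629 to 1056) and 646 ± 77.4 in control mice (range 576 to 825). Ptprc, the CD45 antigen of all leukocytes, averaged 192 ± 48.1 in DSS mice, against 139 ± 20.2 in control mice, a log2 difference of 0.44 (limma, adjusted p = 0.398). For B and plasma cells, 6 of 6 tested genes had a positive difference (median 0.63, and 4 of 6 with a median of 0.21 without the Ovgp1-rich ovaries), with summed levels of 84.5 to 623 in DSS mice and 49.95 to 250 in control mice. The log2 differences were 0.94 for Ighm, 1.16 for Igkc and 1.05 for Jchain. Those of the B cell markers were 0.31 for Cd79b, 0.05 for Ms4a1 and 0.03 for Cd79a, so the list did not move as a whole. Macrophage genes were higher in 6 of 11 (median 0.16), but in 4 of 11 without the Ovgp1-rich ovaries (median -0.03), and their summed level was 1645 ± 120 in DSS mice and 1552 ± 209 in control mice (SD, n = 7 and 8). Their part in the T and NK cell values was not tested.

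Of the oviduct, adipose and stratified epithelium genes, limma called none between DSS and control mice. The estimates of the oviduct genes were higher in DSS mice in 9 of 9 (median 1.15), with summed levels of 319.5 to 34983 in DSS mice and 186.8 to 21698 in control mice. Those of the adipose genes were higher in 7 of 7 tested (median 1.06). Without the Ovgp1-rich ovaries, 8 of 9 oviduct genes (median 0.85) and 6 of 7 adipose genes (median 0.47) were higher. Ovgp1, by which those ovaries were left out, is itself in the oviduct list. The estimates of the stratified epithelium genes were lower in 7 of 7 (median -1.81, and -2.49 without the Ovgp1-rich ovaries), with 692 ± 1343 in DSS mice and 1395 ± 1230 in control mice (SD, n = 7 and 8), and all 7 were called between left and right ovaries, beside 10.2% of all genes. In these lists no gene was at 0 in every library, and their part in the T and NK cell values was not tested.

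**Figure D4:**
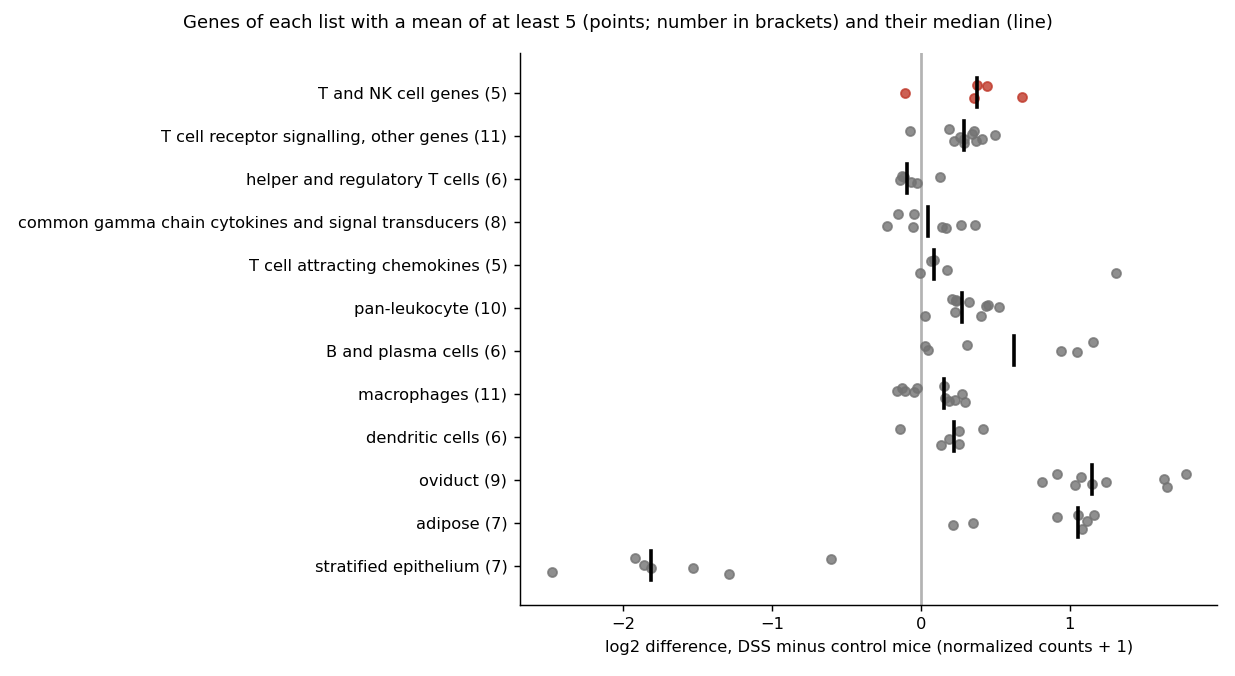
DSS minus control log2 differences of the tested genes of each list (points, number of genes in brackets), with the median of the list as a vertical line. The T and NK cell genes, in red at the top, have a median of 0.38, near the 0.29 of the other receptor signalling genes and the 0.28 of the pan-leukocyte genes. The helper and regulatory T cell, common γ chain and T cell attracting chemokine lists lie at -0.09, 0.05 and 0.09, and B and plasma cells at 0.63. The oviduct and stratified epithelium lists lie at 1.15 and -1.81. Some points, such as Cd28, Cxcl9 and Bcl11b, passed the filter through 1 group only.

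Across the 30 libraries, the genes whose levels ranked most like the sum of the 10 were, out of 14641 tested genes outside the 10, Iigp1 (Spearman's rho 0.71), Lcp1 (0.68), AW112010 (0.67), Ifi47 (0.67) and H2-D1 (0.66). Iigp1 and Ifi47 are interferon-inducible GTPases, Lcp1 is the leukocyte actin-bundling protein L-plastin and H2-D1 is an MHC class I heavy chain. The GTPases and H2-D1 belong to families of similar genes, among which tags may have been split. The 30 points share mice in pairs and, within a library, depth, so these values are a description. Iigp1 averaged 95.3 ± 51.6 normalized counts in DSS mice and 53.4 ± 15.15 in control mice, and Ifi47 averaged 247 ± 92.1 in DSS mice and 182 ± 26.9 in control mice (SD, n = 7 and 8).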

How the data were processed

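The authors deposited normalized counts per gene and library, a non-negative signal that per the file headers and the values is reads divided by a size factor. TopHat, HTSeq, DESeq2 and the build GRCm38.p5 are named per the submitters' processing notes; versions, strand and molecular identifier handling are not given in the sources used here. The value of 1 read ran from 0.528 to 1.33 between libraries, and on division by it 99.97% to 100% of values gave whole reads within a tolerance of 0.0051. Counting error alone is large at these depths, and reads without molecular identifiers are not independent molecules.

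Both ovaries of a mouse were averaged, and log2(value + 1) was tested with limma (version 3.58.1, R 4.3.3, two-sided, with trend) for 14646 genes averaging 5 or more, with Benjamini-Hochberg adjustment at 0.05. Adding 1 shrinks the differences of sparse genes. Left and right libraries were compared with mouse as the block, since both ovaries come from the same animal; their deviations from the group means correlated at -0.273 to 0.372 (median 0.181, over 0.1 in 10 of 15 mice). The side difference of the DSS effect was fitted to each mouse's left minus right value. edgeR 4.0.16 and DESeq2 1.42.0 on recovered reads, scaling, pseudocount, filter, 1 side, omitted mice and omitted Ovgp1-rich ovaries were alternatives. The limma fits were tested on simulated data, with changes put only into genes averaging 10 or more and with no effect of the mouse. That test therefore does not cover genes of lower mean, such as Trac and Zap70. Sequences came from the GRCm38 genome and GENCODE M21. All 10 genes were named, the 3 genes of smallest p at most from each other list and the 5 genes most like the sum. Cd3d, Cd8a, Bcl11b, Cd79a, Cd79b, Ms4a1 and markers at or near 0 were added after their values were seen. The genes and lists were chosen with earlier results of these data known.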

Additional observations from a re-analysis of the deposited data

Results flagged for a closer look

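Nkg7 in mouse DSS_10.4 stood apart from the other DSS mice. Its value of 9.93 normalized counts was the highest of 7, and the gap to the next mouse was 0.596 of the whole range of the group, above Dixon's 95% critical value of 0.568. It was the only value marked in 26 groups of mice examined for the 10 genes and their sums, and chance marks about 1 in 20 groups. The same mouse had the highest Trac, Cd4 and Cd3e values and the highest sum among DSS mice, but the lowest Zap70 value among them, 3.22.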

How the results depend on the processing

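None of the 5 tested genes was called in any alternative of the 3 comparisons that gave an adjusted p (DESeq2 gave none for these 5 between left and right), and the lowest adjusted p of any of the 10 genes was 0.299. Of 395 alternative estimates for single genes, 383 kept their direction. For DSS against control, Lck was 0.0697 in right ovaries alone. For left against right, Trbc2 was -0.0047 and Lck -0.0984 in DSS mice alone, Cd4 was -0.0666 without the Ovgp1-rich ovaries, and Cd4 ran from -0.0443 to 0.15 without 1 mouse at a time (-0.0443 without mouse DSS_11.2 and -0.0234 without mouse control_16.9). For the difference between sides, Lck was 0.14 and Zap70 -0.64 without the Ovgp1-rich ovaries, and without 1 mouse at a time Cd4 ran from -0.17 to 0.29 (-0.0311 without mouse control_11.4) and Zap70 from -0.0601 to 0.35 (-0.0601 without mouse control_16.9 and -0.0156 without mouse control_13.4). The cause was not tested.

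The DSS against control count over all genes, 0 by limma, was 10 without the Ovgp1-rich ovaries, 11 in left and 1 in right ovaries alone, 3 with the first number of the mouse label as a block, 6 by edgeR, 52 by DESeq2, 10 by edgeR with no filter (chosen after seeing the data), and 0 to 13 without 1 mouse at a time, the highest without mouse DSS_15.1. The left against right count, 1488, was 733 without the Ovgp1-rich ovaries, 115 in DSS mice alone, 384 in control mice alone and 1183 to 1569 without 1 mouse at a time. With no replicate block, that is without the pairing of ovaries by mouse, it was 1163. The count for the difference between sides, 0, was 1 without the Ovgp1-rich ovaries. The 10 genes together rest on 30 to 139 reads per library, which limits the precision of the single values.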
